A study of Mus musculus with 3 samples.

Results

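The genes described here are the translesion DNA polymerases, the subunits of polymerase zeta and the regulators of PCNA ubiquitination: Rev1, Rev3l, Mad2l2, Polh, Poli, Polk, Rad18, Usp1 and Primpol. They were found by matching the Ensembl IDs of the deposited table to mouse gene symbols, and all 9 were present, of 50043 IDs in all. In GENCODE release M21 (GRCm38) they lie on chromosomes 1 (Rev1), 4 (Mad2l2 and Usp1), 6 (Rad18), 8 (Primpol), 10 (Rev3l), 13 (Polk), 17 (Polh) and 18 (Poli). The RNA came from KH2 embryonic stem cells of the mouse, carrying an inducible knockout of Pold3, which encodes a subunit of DNA polymerase delta. There was 1 library from each of passages P0, P1 and P2, and all 3 come from the inducible-knockout cells. The labels give neither the inducing agent nor the time of induction, and the sources used here describe no cells without the knockout allele. With no replicate of any passage, the spread between samples is unknown and no p-values were computed.

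Translesion synthesis lets a replication fork pass a damaged base that the replicative polymerases cannot copy. The clamp PCNA is marked with ubiquitin, Y-family polymerases bind the marked clamp and insert a base opposite the lesion, and polymerase zeta extends the new end. The human and yeast forms of polymerase zeta hold 2 subunits in common with polymerase delta, 1 of which is the product of Pold3.

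Levels are given as FPKM, fragments scaled to gene length and to library size. The values allowed the whole reads behind them to be recovered, and the library totals were 23213528 (P0), 18059914 (P1) and 22405670 (P2). Ratios of FPKM carry exact 95% intervals (Clopper-Pearson) on these reads, which allow for counting error and nothing else: the reads carry no molecular identifiers and may be copies of one molecule. A gene is said to have risen or fallen when log2(FPKM + 1) differed by at least 1 between libraries, called 2-fold below; on this scale low genes appear to change less than they do in FPKM. Pold3 measured 49.2 FPKM at P0, 13.0 at P1 and 11.6 at P2, and thus fell between P0 and P1. All 8 embryonic stem cell markers, among them Pou5f1, Nanog and Sox2, had at least 1 FPKM in each library, with summed levels between 3946 and 4239 FPKM. The single markers did not all follow the sum. At P0, P1 and P2, Esrrb measured 221, 127 and 118 FPKM, Sox2 274, 229 and 212, and Utf1 526, 457 and 428. Zfp42 measured 205, 145 and 170 FPKM, and Pou5f1 712, 746 and 670. Dppa5a measured 1089, 1107 and 1322 FPKM, Tdgf1 889, 970 and 1079, and Nanog 179, 165 and 240. Of 8 fibroblast markers, 2 had at least 1 FPKM in each library, and the summed level was 6.98 FPKM at P0, 16.6 at P1 and 19.2 at P2. These were Thy1 (4.21, 9.83 and 11.0 FPKM) and Col1a1 (1.98, 5.63 and 7.09 FPKM), both higher in the later libraries. Of the other 6, Postn was at 0 and Col1a2, Col3a1, Lum, Dcn and Pdgfrb were under 1 FPKM in every library. Of 4 blood cell markers, 0, 0 and 1 had at least 1 FPKM at P0, P1 and P2, with summed levels of 1.15, 1.12 and 2.58 FPKM. Of 4 trophoblast markers, 1, 3 and 3 reached that level, with summed levels of 6.55, 6.58 and 12.8 FPKM. The part of such cells in the differences below was not tested. In these bulk samples, fewer cells of a type and less RNA per cell cannot be told apart.

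Of the 9 genes, 1 rose by P2 and 0 fell. The gene that rose was Polk, which encodes polymerase kappa, the Y-family enzyme best known for bypass of bulky adducts in the minor groove. Among all 13472 genes compared between P0 and P2, 6.72% rose and 1.16% fell, so 1 of 9 is near the background. Between P0 and P1, 0 of the 9 rose or fell, against 4.12% and 0.549% of 13288 genes. Between P1 and P2 the count was also 0, against 0.78% and 0.883% of 13585 genes. The median difference of the 9 genes in log2(FPKM + 1) was -0.10 at P1 and 0.07 at P2 against P0, where the median over all genes was 0.06 and 0.07. For P2 against P1 the medians were 0.12 over the 9 genes and 0.02 over all genes. Counting any difference, 6 of the 9 were below P0 at P1 and 4 at P2, where 42.4% and 42.3% of all genes were, and 4 were lower at P2 than at P1, where 46.2% of all genes were.

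**Figure D1:**
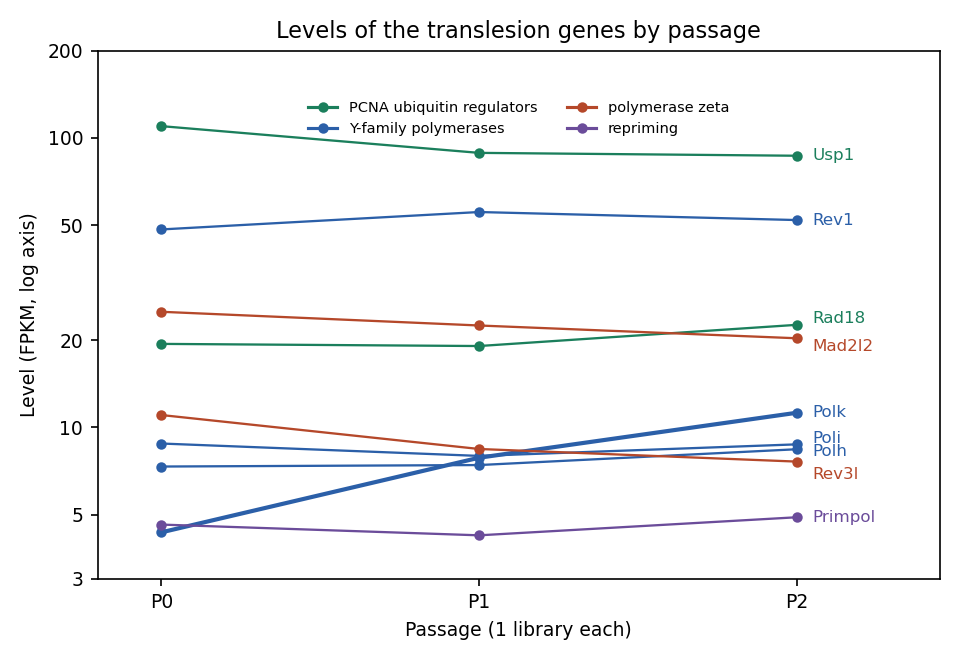
Level of each of the 9 genes (FPKM, log axis) at passages P0, P1 and P2, 1 library each, with 1 line per gene coloured by role. Polk goes from 4.34 to 11.2 FPKM and crosses the lines of Primpol, Polh, Poli and Rev3l, while the other 8 genes keep within 1.45-fold of their own lowest value.

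Polk measured 4.34 FPKM at P0, 7.86 at P1 and 11.2 at P2, from 333, 469 and 832 reads. Each later library was higher than the one before it. The ratio of P1 to P0 was 1.81 (interval 1.57 to 2.09), that of P2 to P0 2.59 (interval 2.28 to 2.95) and that of P2 to P1 1.43 (interval 1.28 to 1.60). All 3 intervals lay above 1, and on the log2(FPKM + 1) scale the differences were 0.73, 1.20 and 0.47. At P0 Polk had the lowest level of the 9 genes, or the lowest but 1 with the length of the longest transcript, and at P2 the fifth highest with either length.

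The other Y-family polymerases differed little between passages. Polh encodes polymerase eta, which copies past ultraviolet-induced thymine dimers and is lost in the variant form of xeroderma pigmentosum. Its level was 7.33 FPKM at P0, 7.41 at P1 and 8.41 at P2. The ratio of P2 to P0 was 1.15, with an interval of 1.01 to 1.31 whose lower end came to 0.918 under median-of-ratios scaling. Poli, the gene of polymerase iota, an enzyme of very low fidelity opposite template T, measured 8.80, 7.97 and 8.74 FPKM. Its ratio of P2 to P0 was 0.993 (interval 0.883 to 1.12), so the first and last libraries could not be told apart at this depth. Rev1, a deoxycytidyl transferase that also serves as the scaffold on which the other translesion polymerases meet polymerase zeta, measured 48.3, 55.5 and 52.0 FPKM. The ratio of P1 to P0 was 1.15 for Rev1 (interval 1.06 to 1.24) and that of P2 to P0 was 1.08 (interval 0.999 to 1.16). Median-of-ratios scaling put the first at 1.06, with an interval of 0.979 to 1.15, and the second at 0.983.

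Polh, Poli and Polk, the inserters other than Rev1, together measured 20.5 FPKM at P0, 23.2 at P1 and 28.4 at P2. Polk made up 21.2% of that sum at P0, 33.8% at P1 and 39.6% at P2. The share of Polh went from 35.8% to 29.6% and that of Poli from 43.0% to 30.8%. The ratio of Polk to Polh was 0.592 at P0, 1.06 at P1 and 1.34 at P2. These shares depend on the gene lengths used, but with the longest annotated transcript of each gene Polk still made up 20.7%, 33.2% and 38.9%.

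**Figure D2:**
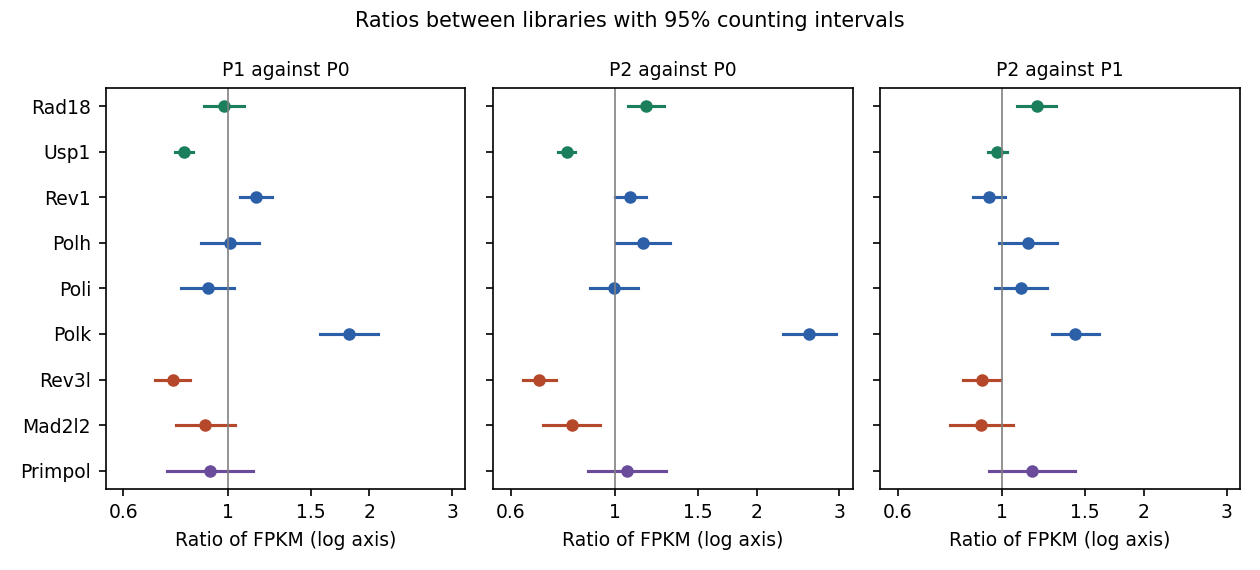
Ratio of FPKM between 2 libraries (log axis) for each of the 9 genes in the 3 comparisons, with points for the ratio and bars for the exact 95% counting interval. Polk lies to the right of 1 in all 3 panels, and Rev3l lies to the left in all 3, with its bar for P2 against P1 ending at 0.991.

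Rev3l and Mad2l2, the subunits of polymerase zeta not shared with polymerase delta, measured lower at P1 and P2 than at P0, within 2-fold. Among all genes, 42.4% were below P0 at P1 and 42.3% at P2. For Mad2l2 the difference at P1 lay within counting error. Rev3l encodes the catalytic subunit, whose loss is lethal in mouse embryos. It measured 11.0 FPKM at P0, 8.43 at P1 and 7.62 at P2, from 1502, 892 and 1001 reads. Each later library was lower than the one before it. Against P0, Rev3l was lower 1.31-fold at P1 (interval 1.21 to 1.42) and lower 1.45-fold at P2 (interval 1.34 to 1.57). Mad2l2 encodes REV7, the adaptor that joins the catalytic subunit to Rev1 and that also serves in the shieldin complex at DNA ends. It measured 25.1, 22.5 and 20.3 FPKM, from 463, 323 and 362 reads. Mad2l2 was 1.23-fold lower at P2 than at P0 (interval 1.07 to 1.42), while at P1 the interval of the ratio to P0, 0.776 to 1.04, held 1. The ratio of Rev3l to Mad2l2 was 0.440, 0.375 and 0.375, and that of Rev3l to Rev1 0.229, 0.152 and 0.146. With the longest annotated transcripts these ratios were 0.462, 0.393 and 0.393 to Mad2l2 and 0.448, 0.298 and 0.287 to Rev1, so their size depends on the lengths used. Pold2, the second subunit held in common with polymerase delta, measured 235, 202 and 210 FPKM. Among Rev3l, Mad2l2, Pold2 and the targeted gene Pold3, only Pold3 passed 2-fold.

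The ligase and the protease that set PCNA ubiquitination lay on different sides of their P0 levels at P2. Rad18, the ubiquitin ligase that marks PCNA, measured 19.4 FPKM at P0, 19.1 at P1 and 22.6 at P2, from 974, 745 and 1094 reads. The ratio of P2 to P0 was 1.16 for Rad18 (interval 1.07 to 1.27). The lower end of that interval came to 0.973 under median-of-ratios scaling. Usp1, the protease that removes ubiquitin from PCNA and FANCD2, had the highest level of the 9 genes, at 110 FPKM at P0, 88.8 at P1 and 86.8 at P2. Against P0, Usp1 was lower 1.24-fold at P1 (interval 1.18 to 1.29) and lower 1.27-fold at P2 (interval 1.21 to 1.32). With 3194 to 5078 reads per library, Usp1 had the narrowest intervals of the 9 genes, and P1 and P2 could not be told apart (ratio 0.977, interval 0.932 to 1.02). Primpol, a primase and polymerase that restarts synthesis beyond a lesion, measured 4.62, 4.24 and 4.90 FPKM. Its 155 to 222 reads per library gave the widest intervals, 0.742 to 1.13 for P1 against P0 and 0.875 to 1.28 for P2 against P0.

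Counting intervals excluded 1 for several of the 9 genes in each comparison, as they did for many genes in these libraries. Between P0 and P2, 3 of 9 lay above 1 (Polk, Rad18 and Polh) and 3 below (Rev3l, Usp1 and Mad2l2), where 39.6% and 25.7% of all genes did. Between P0 and P1, 2 lay above (Polk and Rev1) and 2 below (Rev3l and Usp1), against 34.5% and 22.6%. Between P1 and P2, 2 lay above (Polk and Rad18) and 1 below (Rev3l), against 24.1% and 18.9%. Median-of-ratios scaling, which shifts the median of all genes by -0.11 at P1 and -0.12 at P2 on the log2 scale, left 1 above (Polk) and 3 below (Rev3l, Usp1 and Mad2l2) at P2, where under the same scaling 29.1% and 37.4% of all genes were above and below. At P1 it left 1 above (Polk) and put 5 below (Rev3l, Usp1, Mad2l2, Poli and Rad18), against 24% and 34.9% of all genes. Between P1 and P2 the same 2 lay above and the same 1 below, against 21.7% and 21%.

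**Figure D3:**
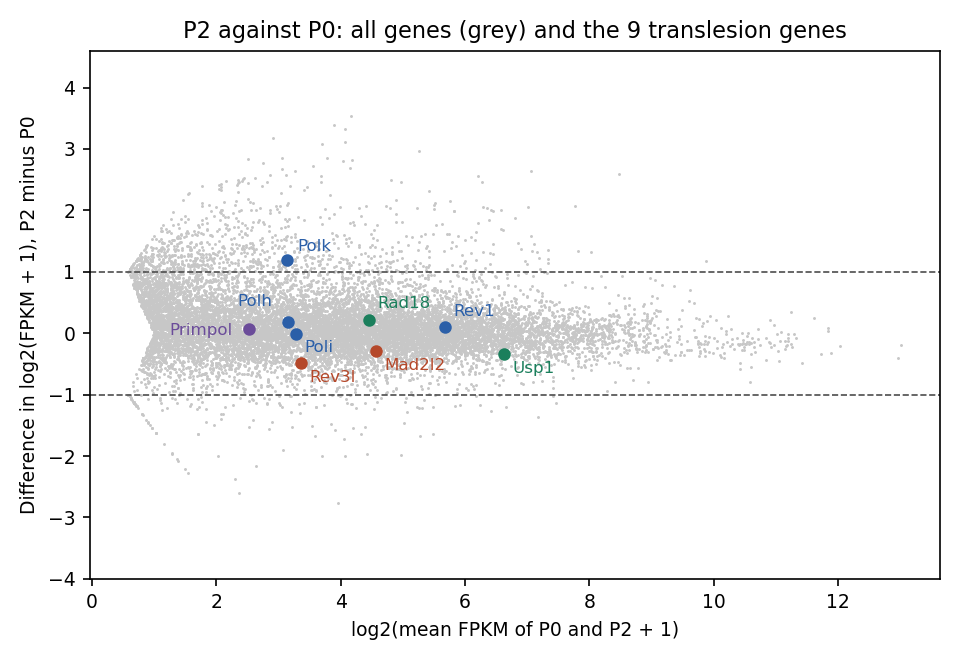
Difference in log2(FPKM + 1) between P2 and P0 against mean level for the 13472 genes compared (grey points), with the 9 genes coloured by role and dashed lines at 2-fold. Polk lies above the upper line at 1.20 and the other 8 genes lie between -0.48 and 0.21.

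The order of levels among the 9 genes was led by Usp1 and Rev1, followed by Mad2l2 and Rad18, whose ranges over the 3 libraries overlapped. Rev3l, Poli, Polk and Polh formed a group with overlapping ranges, between 4.34 and 11.2 FPKM. Primpol had the lowest mean, and its range, 4.24 to 4.90 FPKM, overlapped that of Polk. These levels rest on the gene lengths behind the deposited values, which for each of the 9 genes were shorter than the longest transcript in GENCODE release M21. Rev1, with 11 annotated transcripts, was counted at 1182 bases, while its longest transcript has 4262. At that length Rev1 would measure 13.4, 15.4 and 14.4 FPKM, next to Mad2l2 at 13.0, 11.7 and 10.5 and Rad18 at 11.9, 11.7 and 13.8. Rev3l, counted at 5862 bases with a longest transcript of 10789, would measure 4.58 FPKM at P1 and 4.14 at P2. The choice of length cancels in every ratio between libraries.

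Some of these genes begin close to another gene that is read in the opposite direction. For Primpol, genes of this kind are not reported here. In GENCODE M21 (GRCm38), Polk starts 39 bases from Col4a3bp, the gene of a ceramide transfer protein. Polh starts 137 bases from Xpo5, the gene of the export receptor for microRNA precursors. The promoter windows of Polk and Polh are shown because each takes in the starts of such a pair, running from inside the neighbouring gene into Polk or Polh, and because Polk rose while Polh kept within 2-fold. They are RefSeq windows on GRCm38.p6, around the annotated start, on the minus strand, at chr13:96542530-96542829 (Polk) and chr17:46202592-46202891 (Polh). Capitals mark matches on either strand to the GC box GGGCGG, the CCAAT box with those letters, the TATA box TATAAA, the E box CACGTG, the core TGACG of the cyclic AMP response element (CRE) or the p53 consensus decamer.
Polk: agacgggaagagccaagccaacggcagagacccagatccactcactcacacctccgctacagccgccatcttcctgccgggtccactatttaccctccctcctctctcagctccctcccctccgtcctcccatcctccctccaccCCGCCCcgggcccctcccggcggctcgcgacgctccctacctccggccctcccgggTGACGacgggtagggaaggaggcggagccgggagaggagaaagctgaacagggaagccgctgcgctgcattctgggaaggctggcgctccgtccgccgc
Polh: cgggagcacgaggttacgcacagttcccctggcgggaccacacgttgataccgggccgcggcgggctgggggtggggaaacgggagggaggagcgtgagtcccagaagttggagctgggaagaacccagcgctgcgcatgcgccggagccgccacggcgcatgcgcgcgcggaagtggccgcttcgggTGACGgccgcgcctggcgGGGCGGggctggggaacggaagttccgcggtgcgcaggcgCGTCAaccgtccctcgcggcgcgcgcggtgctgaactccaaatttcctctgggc

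The Polk window holds 1 GC box and 1 CRE core, and the Polh window 1 GC box and 2 CRE cores. No CCAAT box, TATA box, E box or p53 decamer was found in either window. Of 32851 RefSeq windows of this length, 35.7% hold the GC box, 37.4% the CCAAT box, 13.6% the TATA box, 7.15% the E box, 20.8% the CRE core and 8.36% the p53 decamer. A match is a description of the letters and not a binding site.

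Polk and its divergent neighbour did not move together. Col4a3bp measured 14.5 FPKM at P0, 12.2 at P1 and 13.2 at P2, from 1537, 1002 and 1354 reads. The ratio of P2 to P0 was 0.913 for Col4a3bp (interval 0.848 to 0.983), against 2.59 for Polk (interval 2.28 to 2.95). The intervals of the pair did not overlap at P1 or at P2. Xpo5 measured 55.3, 55.5 and 53.9 FPKM, and its ratio of P2 to P0, 0.974 (interval 0.935 to 1.01), had an interval that overlapped that of Polh. These neighbours were looked up after the values of the 9 genes were known.

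**Figure D4:**
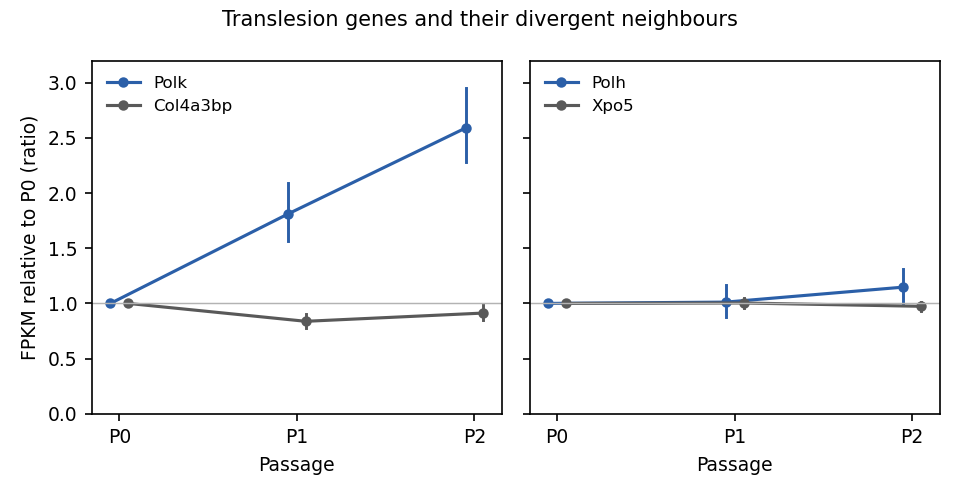
FPKM relative to P0 (ratio) for Polk and Polh, each with the gene that starts next to it on the opposite strand, with bars for the exact 95% counting interval of the ratio to P0. Polk reaches 2.59 at P2 while Col4a3bp is at 0.913.

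Overlap with other genes limits the values of Rev1 and Primpol. Rev1 shares 1643 exon bases with Eif5b, a translation initiation factor gene on the opposite strand, which measured 99.5, 92.1 and 87.4 FPKM. Primpol shares 1069 exon bases with the centromere protein gene Cenpu, also on the opposite strand, which measured 21.5, 24.1 and 22.9 FPKM. Whether the libraries keep the strand is not stated in the sources used here, so reads from these stretches cannot be assigned to a gene with certainty. Polk shares 0 exon bases with the gene annotated inside it.

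Genes that act beside the 9 were read from 5 lists with 38 genes, of which 37 were in the table and 36 reached 1 FPKM in each comparison. Of the 36, 0 rose in any comparison. Pold3, itself the gene targeted by the knockout, was the 1 that fell between P0 and P1 and between P0 and P2. No other gene of the 36 fell. Among all genes, 4.12% rose and 0.549% fell at P1 against P0, and 6.72% and 1.16% at P2 against P0. At P2 against P1 these shares were 0.78% and 0.883%. Between P0 and P2, 17 of the 36 were above their P0 level and 19 below, with a median of -0.05 on the log2(FPKM + 1) scale. Over all genes, 42.3% were below P0 at P2, and the median was 0.07. Among 9 enzymes of PCNA and RPA ubiquitination and their partners, Rfwd3, a ligase that modifies RPA, had the largest difference, from 49.7 to 60.0 and 79.6 FPKM (ratio of P2 to P0 1.60, interval 1.54 to 1.66). All 4 genes of deubiquitination and clamp unloading were below P0 at P1 and again at P2, within 2-fold. Of all genes, 42.4% were below P0 at P1 and 42.3% at P2, and the share below P0 in both libraries was not counted. Of the 4 genes, Usp7, a ubiquitin protease with many substrates, measured 305, 246 and 213 FPKM. Wdr48, the partner that activates Usp1, measured 30.7, 29.7 and 29.5 FPKM, and its ratio of P2 to P0, 0.963, had an interval of 0.892 to 1.04.

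Other specialised polymerases kept closer to P0 than Polk did. Poll, which fills gaps during end joining, had the largest difference of the 4 measured, at 9.31, 10.3 and 12.0 FPKM (ratio of P2 to P0 1.29, interval 1.15 to 1.45). Polq, the polymerase of microhomology-mediated end joining, measured 3.84, 3.85 and 3.49 FPKM. Poln stayed under 1 FPKM, with 5 to 10 reads per library. Among 12 genes of the clamp, RPA and stalled forks, Fanci, which pairs with FANCD2 as a target of Usp1, had the largest difference, from 25.3 to 34.8 and 38.4 FPKM (ratio of P2 to P0 1.52, interval 1.41 to 1.63). Pcna itself measured 560, 614 and 655 FPKM.

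**Figure D5:**
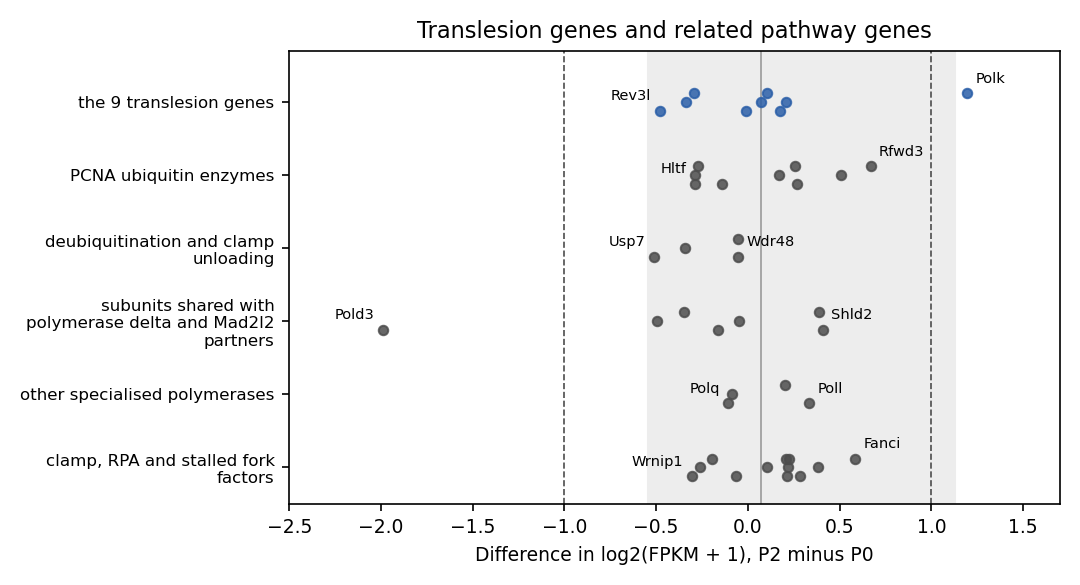
Difference in log2(FPKM + 1) between P2 and P0 for the 9 genes (blue) and the 5 related lists (grey points), 1 point per gene with the lowest and highest of each row named. The shaded band, -0.54 to 1.13, holds all genes but the lowest and highest 5%, and dashed lines mark 2-fold; Polk at 1.20 and Pold3 at -1.99 lie outside the band.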

How the data were processed

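Total RNA of 3 libraries was sequenced. The authors deposited 1 table of FPKM values, and per the submitters' processing notes Bowtie2 2.0.6 and TopHat2 2.0.9 were used with the build mm9. For the counting program, the annotation and the strand, the sources used here name nothing. Of 50043 IDs, 49326 matched a symbol. Library totals were taken as the whole number that most genes with 1 transcript gave, and of 26291 IDs above 0, 26288 (99.99%) then gave whole reads in all libraries (relative tolerance 1e-09). A common factor of reads and length was set by the mean M21 transcript length.

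Values were compared as log2(FPKM + 1) among genes with at least 1 FPKM in 1 or both libraries, with no test, since each passage has 1 library. The fold and interval steps were tested on simulated reads that vary by counting error only, which leaves the spread between samples unchecked. Named genes are the 9 genes, Pold3, related genes past 2-fold or with the largest difference of their list between P0 and P2, the 5 genes closest to Polk, and any added after their values were seen: Pold2, Wdr48, Polq, Poln, Pcna and all neighbouring genes. The genes and lists were chosen with earlier results of these data known. Alternatives were another pseudocount, floor or scaling. RefSeq promoter windows were found for 6 of the 9 genes. Scripts ran in Python 3.11.15 with matplotlib 3.10.9, pandas 2.3.3, scipy 1.17.1 and numpy 2.4.6.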

Additional observations from a re-analysis of the deposited data

How the results depend on the processing

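The 6 alternatives were median-of-ratios scaling, quantile normalization, rescaling to equal FPKM sums, a pseudocount of 0.1, no floor and a floor of FPKM 5. Under each, the count of the 9 genes past 2-fold was the same in all 3 comparisons, 0, 1 and 0. That of the related genes also stayed the same, at 1, 1 and 0. The changes of floor could not alter these counts. Without a floor, only genes under 1 FPKM in both libraries enter, and these cannot differ by 1 on the log2(FPKM + 1) scale. A floor of FPKM 5 only removes genes, and Polk and Pold3, the genes past 2-fold, lie above it. The difference of Polk between P2 and P0 ranged from 1.04 to 1.35. Rev1 and Primpol (P2 against P0) and Polh (P1 against P0) changed sign under 1, 2 and 2 of 4 settings of scale or pseudocount. The median of the 9 genes between P0 and P2 was -0.11 under quantile normalization, where the median of all genes was -0.05. Median-of-ratios scaling gave -0.04 for the 9 genes and -0.05 for all genes. With a pseudocount of 0.1, 1254, 1855 and 635 of all genes passed 2-fold at P1 and P2 against P0 and at P2 against P1, and with a floor of FPKM 5, which tests fewer genes, 342, 599 and 84. Rescaling to equal FPKM sums gave 380 for P2 against P1, against 226 as reported. Quantile normalization moved the share of calls that were higher from 88.2% to 74.9% at P1 and from 85.3% to 70.5% at P2, and a pseudocount of 0.1 moved it from 46.9% to 58.3% for P2 against P1. The cause was not tested. Levels with the longest transcript were added after seeing the data. No paired analysis was possible because each passage has 1 library. At the depth of Primpol, the interval for P2 against P0 spans 0.875 to 1.28 from counting error alone. With 1 library per passage, the size of difference that could be detected is not known.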

Other observations

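Among 11867 other genes with at least 1 FPKM in all 3 libraries, the 5 whose log2(FPKM + 1) values lay closest to those of Polk by Euclidean distance over the 3 libraries were Cilp2, Tmem159, Cx3cl1, Cdo1 and Slc43a3, at distances of 0.15 to 0.20. Cilp2, a cartilage matrix gene, measured 4.51, 8.64 and 10.7 FPKM. Cdo1, a cysteine dioxygenase gene, measured 4.05, 7.13 and 10.5 FPKM. With 3 libraries this likeness is a description and rests on 1 value per passage.

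Transcripts that start next to Mad2l2, Rev3l and Rad18 were low. Draxin, an axon guidance gene that starts 314 bases from Mad2l2 on the opposite strand, had 43, 55 and 70 reads, a ratio of P2 to P0 of 1.69 (interval 1.14 to 2.53), while that of Mad2l2 was 0.810 (interval 0.704 to 0.931). The noncoding E130307A14Rik, which starts 111 bases from Rev3l, had 26, 16 and 16 reads, and Gm26799, which starts 91 bases from Rad18, had 0, 4 and 2. The second RefSeq window of Polk, which begins at an internal start, holds 1 match to the p53 decamer, and the window printed for Polk holds 0. The window of Primpol, a gene that neither rose nor fell, also holds a match, as do 8.36% of all windows.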
